A study of Mus musculus with 13 samples.

Results

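The genes described here are the Regnase, roquin and tristetraprolin mRNA decay factors: Zc3h12a, Zc3h12c and Zc3h12d of the Regnase family, Zfp36, Zfp36l1 and Zfp36l2 of the tristetraprolin family, the roquins Rc3h1 and Rc3h2, and the related N4bp1. They were picked by symbol, and all 9 were among the 19737 genes of the deposited expression table. The set was chosen because Zc3h12a was among the few genes that were higher in the PKR knockout libraries than in the 5xFAD libraries with EGFP, so every value of that contrast is given below as a description, without a test. Microglia are the macrophages that reside in brain tissue, and their RNA was sequenced after ribosomal RNA depletion in 13 mouse libraries. Wild type mice (genotype WT, n = 3) and mice of the 5xFAD transgenic model of Alzheimer's disease (genotype 5xFAD, n = 2) had received AAV PHP.eB-EGFP, an adeno-associated vector (PHP.eB capsid) for the fluorescent protein EGFP. A further 5xFAD group (n = 4) had received a PHP.eB vector for the circular RNA circPOLR2A. In their treatment labels the construct is circPOLR2A followed by (9,10), (9,11), (9,12) and (9,13), while the series design names a single construct, so these 4 libraries are grouped by title. The last group was labelled 5xFAD; PKR KO (n = 4), PKR being a kinase that double-stranded RNA activates, and it is called the knockout here after that label. Its labels name no virus, and library names are given for that group alone, so the knockout cannot be told apart from the absence of a vector or from a separate round of library making. Every group but the first carries the 5xFAD transgenes. Age, sex, the promoter of the virus and the kind of PKR allele are not given in the labels.

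All of these proteins shorten the life of mRNA. Regnase-1, the product of Zc3h12a, is an endonuclease that cuts stem-loops in the 3′ ends of inflammatory mRNAs, and the roquins bind related stem-loops and recruit the CCR4-NOT deadenylase. Tristetraprolin, the product of Zfp36, and its paralogs bind AU-rich elements in mRNAs such as that of Tnf and bring in the same deadenylase. In macrophages Zfp36 and Zc3h12a are themselves induced by inflammatory signals, and their products lie in feedback loops that end cytokine production. N4bp1 encodes an RNase of the same nuclease class as Regnase-1 that dampens NF-kappaB signalling.

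Depth, recovered from the steps between low values, ranged from 45.2 to 70.0 M fragments (M, mega), and was highest in the knockout, at 64.4 M on average, against 48.5 M in wild type, 54.2 M in 5xFAD with EGFP and 48.6 M in the circRNA group. Eif2ak2, the gene for PKR, was at 3.31 to 4.61 FPKM in the knockout libraries, below both 5xFAD EGFP libraries (6.49 and 6.59 FPKM) and all circRNA libraries (7.37 to 8.11 FPKM), but overlapping wild type (4.14 to 5.23 FPKM). The transcript was thus still detected, and as the deleted part of the gene is not given, its level does not check the label. FPKM is a fragment count scaled by gene length and by library size. All 10 listed microglial markers were detected, with a summed level of 2736 to 4677 FPKM over the 13 libraries. Wild type replicate 3 stood apart, with 1534 FPKM over 5 oligodendrocyte markers against 332 and 374 FPKM in the other wild type libraries, and with the lowest microglial sum.

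By mean FPKM over the 13 libraries, a scale that corrects for gene length, the tristetraprolin family stood well above the rest. Zfp36 had the highest mean at 135 FPKM, followed by Zfp36l1 at 64.6 and Zfp36l2 at 56.4 FPKM, but the 4 knockout libraries raised the first of these and the order within the family depended on the group. In all 10 libraries with 5xFAD transgenes Zfp36 exceeded Zfp36l1 and Zfp36l1 exceeded Zfp36l2. In wild type Zfp36l2 exceeded Zfp36l1 in 3 of 3 libraries and Zfp36 in 2 of 3, and the means of Zfp36l2 and Zfp36, at 70.3 and 68.7 FPKM, differed by less than their SDs of 20.4 and 23.5 FPKM. Zc3h12a was next at 10.1 FPKM and Rc3h1 at 7.01 FPKM. Zc3h12a was above Rc3h1 in 4 of 4 knockout libraries, in 2 of 4 with circRNA, in 1 of 2 in 5xFAD with EGFP and in 0 of 3 in wild type. N4bp1 was at 5.64 FPKM. Zc3h12c and Rc3h2 lay close, at 3.50 and 3.45 FPKM. Zc3h12c was above Rc3h2 in 4 of 4 knockout libraries, in 2 of 4 with circRNA and in 0 of the 5 with EGFP, wild type and 5xFAD together. Zc3h12d was last at 0.373 FPKM, and it was the member that fell below the filter of a mean of 1 FPKM, so the tests cover 8 members and 10817 genes in all.

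Zfp36 encodes tristetraprolin itself (ENSMUSG00000044786, chromosome 7, 28376784 to 28380253 in GRCm38, minus strand). In wild type it was at 92.2, 68.6 and 45.3 FPKM, and in 5xFAD with EGFP at 111 and 129 FPKM. With circRNA it was at 109, 101, 76.9 and 73.4 FPKM, and in the PKR knockout at 264, 265, 206 and 214 FPKM. Every knockout library was therefore above every other library, both EGFP 5xFAD libraries were above all wild type and circRNA libraries, and the circRNA libraries overlapped wild type. The means were 68.7 ± 23.5 (SD, n = 3), 120 ± 12.7 (SD, n = 2), 90.2 ± 17.8 (SD, n = 4) and 237 ± 31.5 FPKM (SD, n = 4), in the same order of groups.

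Changes were tested with limma on log2(FPKM + 1), with all 13 libraries in 1 model, p-values adjusted over 10817 genes and a threshold of 0.05. Against wild type, Zfp36 rose in the knockout by 1.82 (SE 0.22) on the log2 scale, which is 3.45-fold in mean FPKM (limma adjusted p = 5.88e-05). It rose in 5xFAD with EGFP by 0.85 (SE 0.26), or 1.74-fold (limma adjusted p = 0.0496). That second call was at the edge of the threshold. It was lost on leaving out any library but wild type replicate 1, with log2 changes of 0.58 to 0.96 and limma adjusted p-values of 0.0509 to 0.293, while leaving out wild type replicate 1 gave 1.09 (limma adjusted p = 0.0185). It was also lost in 5 of 9 other settings (limma adjusted p = 0.0553 to 0.209). In circRNA-treated 5xFAD microglia Zfp36 was 2.63-fold below the knockout in mean FPKM, a log2 difference of -1.40 (SE 0.20, limma adjusted p = 0.00477). The difference between circRNA and EGFP in 5xFAD was -0.42 (95% interval -0.96 to 0.12, limma adjusted p = 0.739), and that between circRNA and wild type was 0.42 (95% interval -0.05 to 0.90, limma adjusted p = 0.185). The latter moved with single wild type libraries, to 0.66 without replicate 1 (limma adjusted p = 0.0425) and to 0.16 without replicate 3 (limma adjusted p = 0.585).

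**Figure D1:**
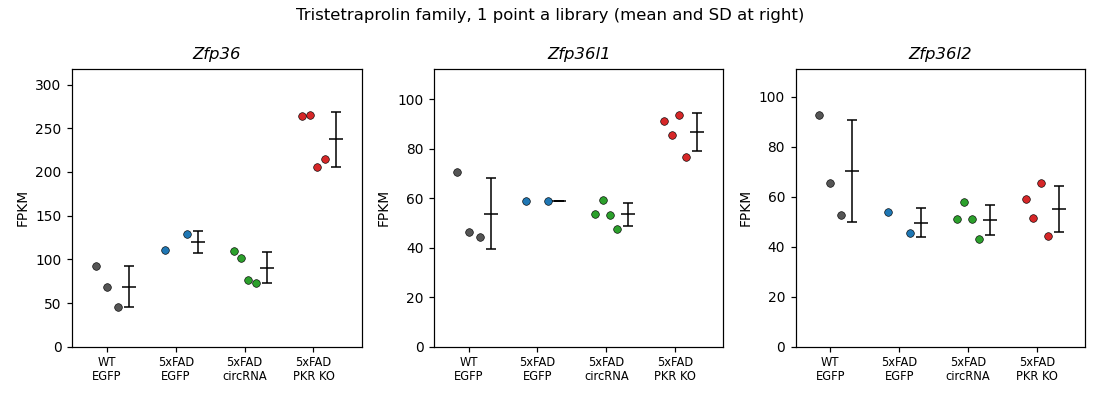
FPKM (linear axis from 0) of Zfp36, Zfp36l1 and Zfp36l2 in each library, by group, with the mean and SD of the group at the right of its points. The 4 knockout libraries lie at 206 to 265 FPKM for Zfp36 and at 76.8 to 93.6 FPKM for Zfp36l1, above all others, while Zfp36l2 overlaps between the groups apart from the wild type libraries at 92.6 and 65.4 FPKM, the second of them just above the highest knockout library at 65.2 FPKM.

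Zfp36l1 encodes the paralog BRF1 (ENSMUSG00000021127, chromosome 12, 80107754 to 80113013, minus strand). It was at 70.5, 46.4 and 44.5 FPKM in wild type and at 59.1 FPKM in both EGFP 5xFAD libraries. With circRNA it was at 53.7, 59.1, 53.3 and 47.6 FPKM, and in the knockout at 91.4, 85.4, 93.6 and 76.8 FPKM. Here again the 4 knockout libraries lay above the other 9, which overlapped one another. Zfp36l1 rose in the knockout against wild type by 0.71 (SE 0.15) on the log2 scale, 1.61-fold (limma adjusted p = 0.00287), and was lower with circRNA than in the knockout, at -0.69 (SE 0.14, limma adjusted p = 0.0169). The rise against wild type was lost after quantile normalization, at 0.34 (limma adjusted p = 0.0764), and the difference between circRNA and knockout was lost on leaving out circRNA replicate 1 or knockout replicate 1, 2 or 3 (limma adjusted p = 0.0509 to 0.0568), at log2 differences of -0.65 to -0.70. Of the gene's exon bases, 55.9% are shared with Gm26669 on the opposite strand. The libraries were stranded, but how counting used the strand is not stated, so the level of Zfp36l1 is uncertain to that extent.

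Zfp36l2 encodes the paralog BRF2 (ENSMUSG00000045817, chromosome 17, 84183931 to 84187947, minus strand). It was at 92.6, 65.4 and 52.8 FPKM in wild type, at 53.8 and 45.5 FPKM in 5xFAD with EGFP, at 51.0, 57.6, 51.1 and 43.2 FPKM with circRNA and at 59.2, 51.6, 65.2 and 44.3 FPKM in the knockout. It was the member of the family with no call in the 5 tested comparisons. Its log2 differences from wild type were -0.46 (SE 0.22) in 5xFAD with EGFP, -0.43 (SE 0.18) with circRNA and -0.32 (SE 0.18) in the knockout, with limma adjusted p-values of 0.204, 0.105 and 0.182. Without wild type replicate 3, the library with high oligodendrocyte markers, all of these passed, at -0.64, -0.62 and -0.51 (limma adjusted p = 0.0447, 0.0236 and 0.0409), as they did after quantile normalization, at -0.70, -0.79 and -0.71. Without wild type replicate 1, the highest library at 92.6 FPKM, the differences shrank to -0.24, -0.22 and -0.11 (limma adjusted p = 0.508, 0.383 and 0.651). Markers of vessel cells and border macrophages summed lower in the 5xFAD groups than in wild type, the endothelial sums with an overlap. In wild type 5 endothelial markers summed to 45.7 to 105 FPKM, against 21.1 to 59.1 FPKM in the 5xFAD groups. The 5 mural markers summed to 49.2 to 108 against 17.9 to 45.0 FPKM, and 4 border macrophage markers to 28.8 to 46.0 against 10.5 to 19.5 FPKM. Astrocyte and neuron markers were not lower in this way. The 5 astrocyte markers summed to 60.8 to 216 FPKM in wild type and 104 to 189 FPKM in the 5xFAD groups, with Gfap at 11.6 to 29.9 against 49.6 to 116 FPKM, and the 7 neuron markers to 7.07 to 24.9 against 5.39 to 21.1 FPKM. The part of any of these in the level of Zfp36l2 was not tested. In bulk RNA, fewer cells of a type and less RNA per cell cannot be told apart.

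The balance within the family shifted between groups as well. Zfp36 made up 35.3% ± 3.19 (SD, n = 3) of the summed FPKM of the 3 paralogs in wild type, 52.4% ± 3.98 (SD, n = 2) in 5xFAD with EGFP, 46.1% ± 3.68 (SD, n = 4) with circRNA and 62.5% ± 4.15 (SD, n = 4) in the knockout. As a description of the contrast that chose the set, the lowest knockout library, at 56.5%, was above the highest EGFP 5xFAD library, at 55.2%. The summed level of the 3 genes ran from 143 to 255 FPKM in wild type and from 335 to 414 FPKM in the knockout. The share is a ratio within each library and is not moved by scaling of the whole library.

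Tristetraprolin proteins recognise the nonamer TTATTTATT (with U for T in the RNA), and their own mRNAs carry it. In GENCODE M21 (GRCm38), the 3′ ends after the stop codon of 5 of the 9 members hold the nonamer once each, against 7.60% of 20979 coding genes. Among genes with 3′ ends of similar length the share was 4.20% for Zfp36, 10.0% for Zfp36l1, 9.91% for Zfp36l2, 28.1% for Rc3h1 and 22.2% for Rc3h2. The nonamer was not found in the 3′ ends of Zc3h12a, Zc3h12c, Zc3h12d and N4bp1. The sites are printed because they include those of Zfp36, Zfp36l1 and Zfp36l2, with the nonamer in capitals, in the orientation of the mRNA, and a match is a description of letters, not a measured binding site.
Zfp36, chr7:28376951-28376979, minus strand: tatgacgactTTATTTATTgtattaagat
Zfp36l1, chr12:80108167-80108195, minus strand: aactgttggaTTATTTATTttagaaattc
Zfp36l2, chr17:84184914-84184942, minus strand: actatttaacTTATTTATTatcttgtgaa
Rc3h1, chr1:160970043-160970071, plus strand: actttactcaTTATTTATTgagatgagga
Rc3h2, chr2:37373287-37373315, minus strand: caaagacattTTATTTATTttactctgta

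Zc3h12a encodes Regnase-1 (ENSMUSG00000042677, chromosome 4, 125118423 to 125127840, minus strand). It was at 5.81, 6.39 and 3.93 FPKM in wild type, at 7.20 and 8.91 FPKM in 5xFAD with EGFP, at 6.79, 7.26, 7.89 and 7.29 FPKM with circRNA and at 19.9, 18.4, 15.8 and 15.6 FPKM in the knockout. The knockout libraries were all above 15 FPKM and the other 9 all below 9 FPKM. As a description, since the choice of the gene used it, the knockout mean was 2.16-fold that of 5xFAD with EGFP, a log2 difference of 1.02. Zc3h12a was among the 9 genes, 0.0832% of all, that passed the threshold in that contrast, all higher in the knockout, which only restates its choice. No gene passed with a pseudocount of 0.1, with no filter, with the same FPKM sum, after quantile normalization or with voom on recovered fragments. In the other settings 22 to 822 genes passed. Just inside the threshold lay Lox and Cdkn1a, at log2 differences of 0.63 and 0.82, and just outside it Plekho2 and Tgif1, at 0.68 and 0.80. By size of the log2 difference Zc3h12a was in place 10 and Zfp36, at 0.97, in place 15 of 10817 genes. The other members' log2 differences in the same contrast, also untested, were 0.54 for Zfp36l1, 0.26 for Zc3h12c, 0.14 for Zfp36l2, 0.05 for N4bp1, -0.06 for Rc3h1 and -0.12 for Rc3h2.

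The contrast of circRNA-treated 5xFAD with wild type compares none of the libraries used to choose Zc3h12a, although these still help to set the spread in the model of all 13. There it rose by 0.40 (SE 0.13) on the log2 scale, 1.36-fold, with no overlap between the groups (limma adjusted p = 0.0437). In a fit of these groups alone, which leaves the choosing libraries out, the change was the same and did not pass (limma adjusted p = 0.0897). The call was lost in 6 of 9 other settings, that fit included, and in 8 of 13 fits without a library. It was 0.23 once wild type replicate 3 was left out (limma adjusted p = 0.158) and 0.46 once wild type replicate 1 was (limma adjusted p = 0.0513). On leaving out any single circRNA replicate, or knockout replicate 2 or 3, it was 0.37 to 0.43 (limma adjusted p = 0.0521 to 0.0973).

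**Figure D2:**
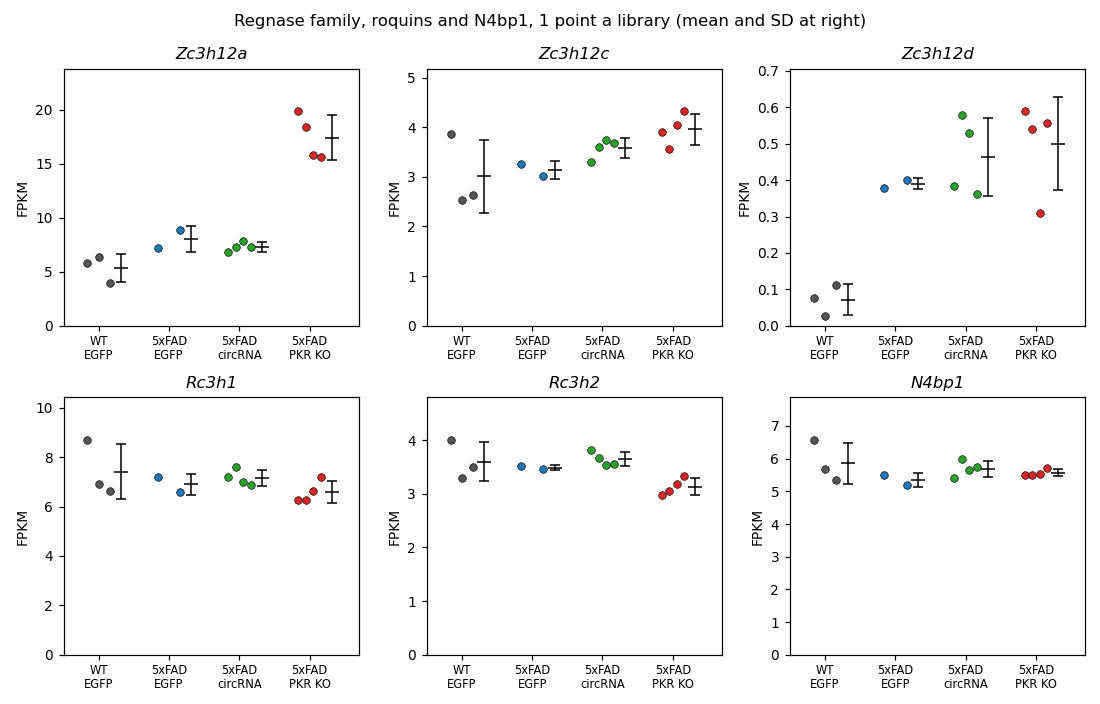
FPKM (linear axes from 0, each with its own range) of Zc3h12a, Zc3h12c, Zc3h12d, Rc3h1, Rc3h2 and N4bp1 in each library, by group, with the mean and SD of the group at the right of its points. Zc3h12a is above 15 FPKM in the 4 knockout libraries alone, Zc3h12d is under 0.12 FPKM in the wild type libraries alone, and the roquins and N4bp1 lie in narrow bands.

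Zc3h12c encodes the sister nuclease Regnase-3 (ENSMUSG00000035164, chromosome 9, 52111344 to 52168572, minus strand). It was at 3.86, 2.53 and 2.63 FPKM in wild type, at 3.26 and 3.01 FPKM in 5xFAD with EGFP, at 3.29 to 3.73 FPKM with circRNA and at 3.57 to 4.32 FPKM in the knockout. The knockout libraries overlapped the highest wild type library. The gene rose in the knockout against wild type by 0.32 (SE 0.10) on the log2 scale, 1.32-fold (limma adjusted p = 0.0263). This call was lost with each library scaled to the same FPKM sum, at 0.14 (limma adjusted p = 0.172), and in a fit of these groups alone (limma adjusted p = 0.0763). It was also lost on leaving out wild type replicate 2 or 3 or knockout replicate 3 or 4, at 0.24 to 0.31 (limma adjusted p = 0.0540 to 0.104). Against wild type the circRNA libraries differed by 0.21 (SE 0.10, limma adjusted p = 0.162), which was 0.35 without wild type replicate 1 (limma adjusted p = 0.0051), 0.12 without replicate 2 and 0.14 without replicate 3 (limma adjusted p = 0.448 and 0.381), and -0.02 with the same FPKM sum.

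Zc3h12d encodes Regnase-4, also known as TFL, which is best known from lymphocytes (ENSMUSG00000039981, chromosome 10, 7832470 to 7870396, plus strand). It was the scarcest member and, by the ratio of means, the one that differed most between wild type and each 5xFAD group. In wild type it was at 0.0776, 0.0256 and 0.111 FPKM, which are 15, 5 and 23 fragments. In the 10 libraries with 5xFAD transgenes it was at 0.310 to 0.589 FPKM, or 71 to 155 fragments, and none overlapped wild type. The mean was 5.45-fold that of wild type in 5xFAD with EGFP, 6.47-fold with circRNA and 6.98-fold in the knockout. Among the tested genes, 16.5% were higher without overlap in 5xFAD with EGFP than in wild type, 20.2% with circRNA and 19.8% in the knockout. With no filter on low values, 18291 genes were tested and Zc3h12d rose against wild type by 0.38, 0.45 and 0.48 on the log2(FPKM + 1) scale, which compresses such low levels (limma adjusted p = 0.0210, 0.00165 and 0.000771). A set of 5 lymphocyte markers (Cd3e, Cd3g, Cd79a, Ms4a1 and Nkg7) was also higher in sum in these libraries, at 0.154 to 0.512 FPKM against 0.0788 to 0.104 FPKM in wild type. Of these, Nkg7 was at 0 in the median wild type library and at 0.0614 to 0.351 FPKM in the 5xFAD groups, while the B cell marker Cd79a had its highest median in wild type (0.0544 FPKM, against 0.0189 to 0.0376 FPKM in the 5xFAD groups) and Ms4a1 was at most 0.0103 FPKM in any library and at 0 in both EGFP 5xFAD libraries. The part of lymphocyte RNA in the level of Zc3h12d was not tested.

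Within the Regnase family the share of Zc3h12a followed its own level, so its value in the knockout is a description only. It made up 55.8% ± 7.31 (SD, n = 3) of the summed FPKM of the 4 paralogs, Zc3h12b included, in wild type, 63.1% ± 4.42 (SD, n = 2) in 5xFAD with EGFP, 58.2% ± 0.572 (SD, n = 4) with circRNA and 76.0% ± 2.97 (SD, n = 4) in the knockout. Zc3h12b, the Regnase paralog that is not a member of the set, was low at 0.906 to 1.26 FPKM over all libraries, and the tristetraprolin paralog Zfp36l3 was at 0.132 to 0.523 FPKM. Of the 3 tested relatives, Nynrin, which shares the nuclease domain, fell in 5xFAD with EGFP and in the knockout against wild type, by 0.35 and 0.33 on the log2 scale (limma adjusted p = 0.0421 and 0.0125), and Khnyn, a cofactor of the antiviral protein ZAP, fell with circRNA by 0.34 (limma adjusted p = 0.0207).

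Upstream sequence was compared because Zc3h12a and Zfp36 were high in the same libraries. RefSeq promoters (GRCm38.p6) were found for 8 of the 9 members, Zfp36l2 being the exception. The 250 bases before the start were searched on both strands for the NF-kappaB consensus by its usual degenerate form, the AP-1 site TGANTCA, the CArG box of serum response factor and the full cyclic AMP response element TGACGTCA. Over 32851 promoters of that length these were found in 3.90%, 6.75%, 1.47% and 1.55%. Zfp36 had a CArG box from 58 to 49 bases upstream, Zfp36l1 an AP-1 site from 129 to 123 bases upstream and Rc3h1 an AP-1 site from 133 to 127 bases upstream, with no overlapping matches. No letters of these 4 motifs were found in the windows of Zc3h12a, Zc3h12c, Zc3h12d, Rc3h2 and N4bp1, which says only that they are absent from this stretch. The matches are printed in 30 bases each with the motif in capitals, and the window of Zc3h12a is printed whole as the sequence of the gene that led to the choice of the family (66.4% G and C).
Zfp36, chr7:28379267-28379296, minus strand: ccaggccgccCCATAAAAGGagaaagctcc
Zfp36l1, chr12:80113124-80113153, minus strand: gaccgcatggcTGATTCAacctcagtgtca
Rc3h1, chr1:160906267-160906296, plus strand: gttggggccggTGACTCAgagctttcctcc
Zc3h12a, chr4:125127882-125128131, minus strand: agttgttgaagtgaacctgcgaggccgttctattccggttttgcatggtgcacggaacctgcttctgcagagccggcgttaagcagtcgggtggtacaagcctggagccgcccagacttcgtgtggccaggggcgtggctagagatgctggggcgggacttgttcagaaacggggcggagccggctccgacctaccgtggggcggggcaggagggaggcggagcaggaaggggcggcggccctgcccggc

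Rc3h1 encodes roquin-1 (ENSMUSG00000040423, chromosome 1, 160906418 to 160974978, plus strand) and was nearly level. It was at 6.62 to 8.69 FPKM in wild type, 6.59 and 7.20 FPKM in 5xFAD with EGFP, 6.86 to 7.62 FPKM with circRNA and 6.25 to 7.20 FPKM in the knockout. Its tested log2 differences ran from -0.14 to 0.11, and none passed. The interval for the knockout against wild type was -0.33 to 0.04.

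Rc3h2 encodes roquin-2 (ENSMUSG00000075376, chromosome 2, 37370069 to 37422903, minus strand). It was at 3.30 to 4.00 FPKM in wild type, 3.45 and 3.52 FPKM in 5xFAD with EGFP, 3.54 to 3.81 FPKM with circRNA and 2.97 to 3.33 FPKM in the knockout. The knockout libraries were below every circRNA and every EGFP 5xFAD library, by a narrow margin, and overlapped wild type. Rc3h2 differed by 0.17 (SE 0.06) between circRNA and knockout (limma adjusted p = 0.0926), which passed with array weights, at 0.20 (limma adjusted p = 0.00989), and by -0.15 (SE 0.06) between knockout and wild type (limma adjusted p = 0.0729). The latter was -0.20 without wild type replicate 2 (limma adjusted p = 0.0387), -0.09 without replicate 1 (limma adjusted p = 0.254) and -0.07 after quantile normalization (limma adjusted p = 0.406).

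N4bp1 (ENSMUSG00000031652, chromosome 8, 86808160 to 86885258, minus strand) was the steadiest member, with a coefficient of variation of 6.12% over the 13 libraries against 56.0% for Zfp36. It was at 5.33 to 6.56 FPKM in wild type, 5.18 and 5.49 FPKM in 5xFAD with EGFP, 5.39 to 5.99 FPKM with circRNA and 5.49 to 5.73 FPKM in the knockout. No comparison passed, and the widest 95% interval reached -0.28 on the log2 scale. Scaling every library to the same FPKM sum moved the median of all genes against wild type to between -0.17 and -0.24, and under it the differences of the roquins and N4bp1 from wild type in the circRNA and knockout groups were -0.21 to -0.35, each past the threshold and close to that shift.

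**Figure D3:**
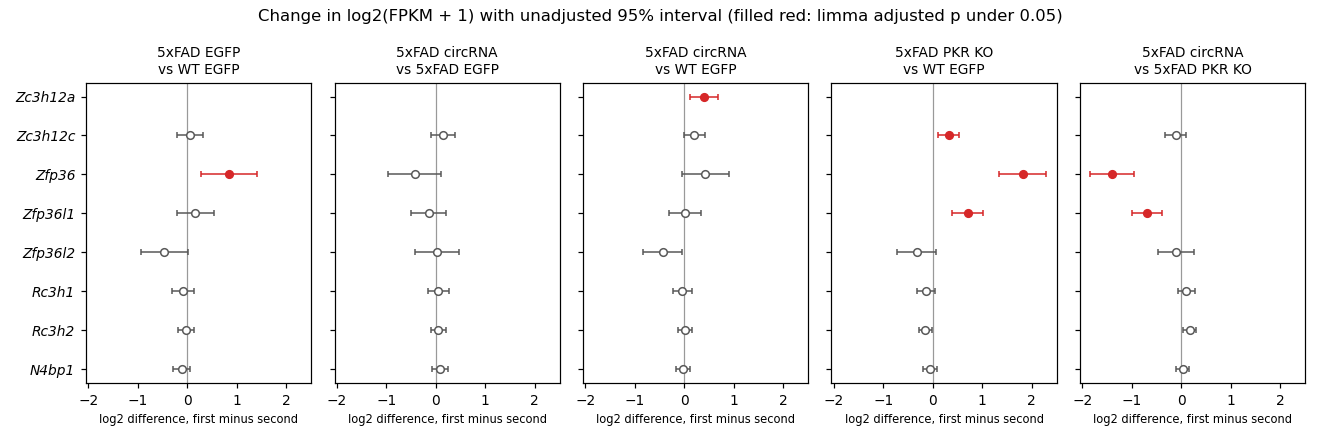
Difference in log2(FPKM + 1) for each tested member in each tested comparison, with the unadjusted 95% interval, where filled red points passed a limma adjusted p of 0.05. Zfp36 passes in 3 of 5 comparisons and Zfp36l1 in 2, Zc3h12c passes for knockout against wild type, and Zc3h12a is shown for circRNA against wild type alone, where it passes at 0.40.

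Counted over the 7 tested members other than Zc3h12a, 1 of 7 passed in 5xFAD with EGFP against wild type, and it was higher. There 14.0% of all genes passed, 7.65% higher and 6.35% lower. None of 7 passed for circRNA against EGFP in 5xFAD, where 0% of all genes passed in limma, 523 genes had an unadjusted p under 0.05 and no member was among them, the smallest member p being 0.113. None of 7 passed for circRNA against wild type, where 25.8% of all genes passed, 17.8% higher and 8.05% lower. For the knockout against wild type 3 of 7 passed, all higher, where 37.0% of all genes passed, 17.5% higher and 19.4% lower. For circRNA against the knockout 2 of 7 passed, both lower, where 6.19% of all genes passed, 4.28% higher and 1.91% lower. The 2 tested comparisons with the knockout share its libraries with the contrast that chose the set, and the 3 comparisons with wild type share the wild type libraries.

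Proteins that act on these factors were taken from a list of upstream regulators. Of its 13 tested genes 5 rose and 2 fell in the knockout against wild type, where 17.5% of all genes were higher and 19.4% lower. In 5xFAD with EGFP 2 of 13 rose and 0 fell, where 7.65% of all genes were higher and 6.35% lower. With circRNA 3 of 13 rose and 1 fell against wild type, where 17.8% of all genes were higher and 8.05% lower. The median log2 change of the list was 0.12 in the knockout, against -0.05 for all genes. Mapkapk2, the p38-activated kinase that phosphorylates tristetraprolin and holds it inactive, rose in each 5xFAD group against wild type, from 17.6 ± 2.83 FPKM (SD, n = 3) to 31.2 ± 0.782 (SD, n = 2) with EGFP, 34.6 ± 3.64 (SD, n = 4) with circRNA and 39.4 ± 4.47 FPKM (SD, n = 4) in the knockout. Its log2 changes were 0.80, 0.94 and 1.12 (limma adjusted p = 0.0033, 0.000124 and 2.35e-05). Mapkapk3, a kinase of the same family, rose by 0.48, 0.49 and 0.65 in the same comparisons (limma adjusted p = 0.0042, 0.000514 and 4.33e-05). Mapk14, the p38 kinase above them, fell against wild type with circRNA and in the knockout by 0.32 and 0.33 (limma adjusted p = 0.0493 and 0.0317), and its difference in 5xFAD with EGFP was as large, at -0.35 (limma adjusted p = 0.103). Irak2, an interleukin-1 receptor kinase, rose in the knockout by 0.60 (limma adjusted p = 8.09e-05) and was lower with circRNA than in the knockout, at -0.39 (limma adjusted p = 0.0118). Of the 13 tested regulators it was the only gene that passed in that last comparison, where 6.19% of all genes passed and 1.91% were lower.

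The deadenylation machinery that the roquins and tristetraprolins recruit was taken as a list of 19 genes, all tested. In the knockout against wild type 3 rose and 3 fell, near the 37.0% of all genes that passed there, with a list median of -0.12 against -0.05 for all genes, and 1 rose and 0 fell in each of the other groups against wild type, where 7.65% (EGFP) and 17.8% (circRNA) of all genes were higher. That gene was Pabpc1, the cytoplasmic poly(A) binding protein, which was at 37.6 ± 4.40 FPKM (SD, n = 3) in wild type and at 69.9, 82.5 and 77.8 FPKM on average in 5xFAD with EGFP, with circRNA and in the knockout (limma adjusted p = 0.00159, 3.08e-05 and 4.32e-05). Btg2 and Btg1, antiproliferative adaptors that stimulate deadenylation, rose in the knockout against wild type by 1.02 and 0.91 (limma adjusted p = 0.00144 and 0.000957). They were lower with circRNA than in the knockout (limma adjusted p = 0.0343 and 0.0494), where 1.91% of all genes were lower and 4.28% higher. Tob1, a related adaptor, fell in the knockout by 0.85, and the catalytic subunits Cnot6 and Cnot7 fell by 0.41 and 0.24 (limma adjusted p = 0.00771, 0.00255 and 0.0323). Between circRNA and the knockout, Cnot6 and Cnot7 lay the other way from Btg2 and Btg1. With circRNA Cnot6 and Cnot7 were at 4.93 to 5.42 and 3.17 to 3.99 FPKM. In the knockout they were at 3.51 to 3.86 and 2.61 to 3.05 FPKM. Of 13 decapping and decay genes, 2 fell and 0 rose in the knockout against wild type, where 37.0% of all genes passed. These were the exonuclease Xrn1, by 0.20, and the helicase Ddx6, by 0.23 (limma adjusted p = 0.0374 and 0.0483). With circRNA Xrn1 was higher than in the knockout by 0.29 (limma adjusted p = 0.0251), where 4.28% of all genes were higher.

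Other proteins that bind AU-rich or stem-loop elements formed a list of 6, all tested. Tia1, a translational silencer, fell in each 5xFAD group against wild type, by 0.37 with EGFP, 0.41 with circRNA and 0.48 in the knockout (limma adjusted p = 0.00896, 0.000648 and 0.000168). Hnrnpd, which encodes the decay factor AUF1, fell in the knockout by 0.20 (limma adjusted p = 0.0242) and was higher with circRNA than in the knockout by 0.35 (limma adjusted p = 0.008). Arid5a, which binds the same stem-loops as Regnase-1 and stabilises the mRNA, was at 2.39 ± 0.168 FPKM (SD, n = 4) with circRNA and at 3.27 ± 0.340 FPKM (SD, n = 4) in the knockout, a log2 difference of -0.33 (limma adjusted p = 0.0172).

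Most tested targets of these decay factors rose in the knockout against wild type. Of 23 listed targets, all in the table, 13 passed the filter and 10 did not, among them Il6, Il12b, Il10, Csf2 and Cxcl1. In the knockout against wild type 10 of 13 rose and 1 fell, where 17.5% of all genes were higher and 19.4% lower, with a list median of 0.97 on the log2 scale against -0.05 for all genes. In 5xFAD with EGFP 5 of 13 rose and 0 fell, where 7.65% of all genes were higher and 6.35% lower, with a median of 0.48 against -0.03. With circRNA 4 of 13 rose and 0 fell against wild type, where 17.8% of all genes were higher and 8.05% lower, with a median of 0.33 against 0.02. Against the knockout, circRNA gave 7 of 13 lower and 0 higher, where 1.91% of all genes were lower and 4.28% higher, with a median of -0.75 against 0.08 for all genes. Against EGFP in 5xFAD 0 of 13 passed in limma, where 0% of all genes passed, with a median of -0.14 against 0.08. Ier3 and Dusp1 in this list are also fast-response genes.

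Tnf, the classical target of tristetraprolin, was at 4.98 ± 1.77 FPKM (SD, n = 3) in wild type and at 21.4 ± 7.91 FPKM (SD, n = 4) in the knockout, a log2 change of 1.87 (limma adjusted p = 0.000226). Tnf also rose against wild type in 5xFAD with EGFP and with circRNA, by 1.31 and 1.09 (limma adjusted p = 0.0171 and 0.0102). Between circRNA and the knockout Tnf did not pass, at -0.78 (limma adjusted p = 0.079). Nfkbiz, the regulator IkappaB-zeta whose mRNA Regnase-1 cuts, was at 14.0 ± 2.95 FPKM (SD, n = 3) in wild type, 34.7 ± 3.83 (SD, n = 2) in 5xFAD with EGFP, 28.2 ± 3.79 (SD, n = 4) with circRNA and 63.9 ± 8.96 FPKM (SD, n = 4) in the knockout. It rose in the knockout by 2.13 and was lower with circRNA than in the knockout by a log2 difference of -1.15 (limma adjusted p = 1.29e-06 and 0.00284). Ccl3, a chemokine, showed the widest change of the list in the knockout against wild type, at 2.81, followed by Il1b, the interleukin-1 beta gene, at 2.15 (limma adjusted p = 5.69e-06 and 2e-05). Ccl3 also rose by 2.35 in 5xFAD with EGFP and by 2.23 with circRNA (limma adjusted p = 0.000321 and 4.68e-05). Il1b rose there by 1.45 and 1.28 (limma adjusted p = 0.00399 and 0.00131). Tfrc, the transferrin receptor, whose mRNA Regnase-1 also cuts, was the target that fell, by 0.72 in the knockout against wild type (limma adjusted p = 0.0138). The nonamer TTATTTATT was found in the 3′ ends of 8 of the 23 targets, with 5 copies in Tnf, 4 in Csf2 and 4 in Cxcl2.

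**Figure D4:**
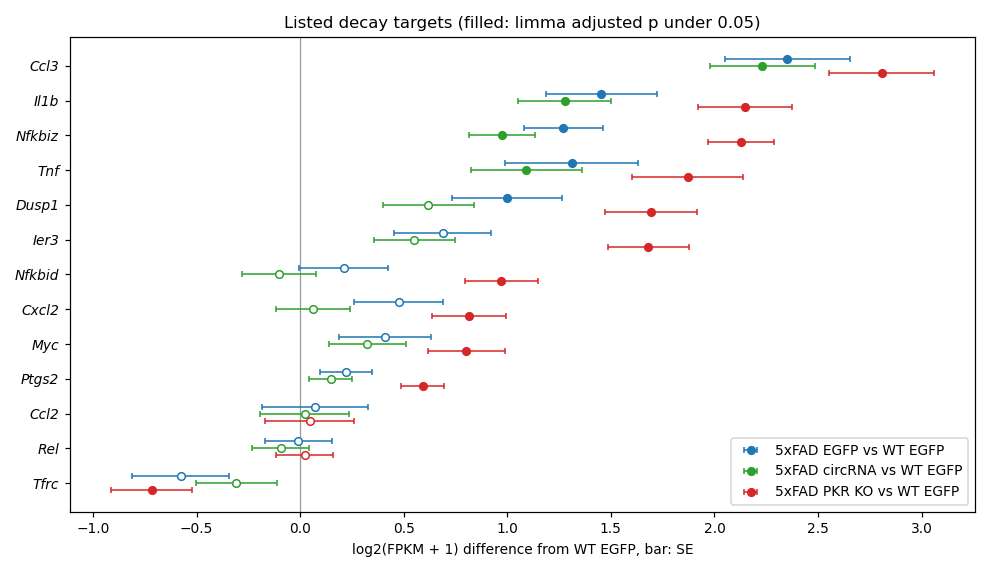
Difference in log2(FPKM + 1) from wild type with its SE for the 13 tested decay targets, in 5xFAD with EGFP (blue), with circRNA (green) and in the PKR knockout (red), where filled points passed a limma adjusted p of 0.05. In the knockout 10 targets rise, by 0.59 to 2.81, and Tfrc falls by 0.72.

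A list of 13 immediate-early and heat-shock genes, which also respond when cells are handled, was highest in sum in the knockout libraries, where Zfp36 and Zc3h12a were highest too. Its summed level was 634 to 1047 FPKM in wild type, 1100 to 1154 FPKM in 5xFAD with EGFP, 715 to 1029 FPKM with circRNA and 1259 to 1551 FPKM in the knockout. Within it 10 genes rose and 2 fell in the knockout against wild type, where 17.5% of all genes were higher and 19.4% lower, with a median of 1.29 against -0.05 for all genes. With circRNA 9 were lower and 0 higher than in the knockout, where 1.91% of all genes were lower and 4.28% higher. Egr2 and Atf3 rose most in the knockout, by 2.28 and 2.15 (limma adjusted p = 3.02e-07 and 2.3e-06), while the heat-shock genes Hspa1b and Hspa1a fell by 1.32 and 1.25 (limma adjusted p = 0.0341 and 0.0346). Egr2, Atf3, Egr1 and Ier2 also rose in 5xFAD with EGFP against wild type, the first of them by 1.80 and Atf3 by 1.58 (limma adjusted p = 2.82e-05 and 0.000377). With circRNA Egr2, Atf3 and Ier2 rose against wild type, Egr2 by 1.65 and Atf3 by 1.16 (limma adjusted p = 6.01e-06 and 0.000406). Nr4a1 fell there by a log2 change of -0.72 (limma adjusted p = 0.00363). Oligodendrocyte markers differed from 5xFAD with EGFP too, at 213 to 359 FPKM in sum in the knockout against 597 and 641 FPKM there. Their sums in wild type, at 332 to 1534 FPKM, and with circRNA, at 281 to 748 FPKM, overlapped the knockout. The 7 neuron markers summed to 7.47 to 13.0 FPKM in the knockout against 18.2 and 21.1 FPKM in 5xFAD with EGFP. In wild type, at 7.07 to 24.9 FPKM, and with circRNA, at 5.39 to 17.8 FPKM, the neuron sums overlapped the knockout. The part of any of these in the levels of the decay factors was not tested.

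The genes whose pattern over the 13 libraries was most like that of Zc3h12a were found by the root mean square difference of log2(FPKM + 1) after removal of each gene's mean, where a smaller value is more alike. They were Junb (0.154), an AP-1 subunit, Ier3 (0.179), an early response gene, Nfkbia (0.179), which encodes IkappaB-alpha, Ppp1r15a (0.189), which encodes the eIF2alpha phosphatase subunit GADD34, and Socs3 (0.199), an inhibitor of cytokine signalling. Zc3h12a itself lay 0.624 from a flat line. For Zfp36 they were Tnfaip3 (0.205), which encodes the NF-kappaB inhibitor A20, Ier2 (0.206), Gadd45b (0.209), Ier3 (0.213) and Nfkbia (0.214). Zfp36 and Zc3h12a differed by 0.251, which put Zfp36 in place 14 for Zc3h12a and Zc3h12a in place 8 for Zfp36. Among the other members Zfp36l1 came next to Zc3h12a, in place 58, and the remaining 5 tested members were at place 1163 or beyond.

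**Figure D5:**
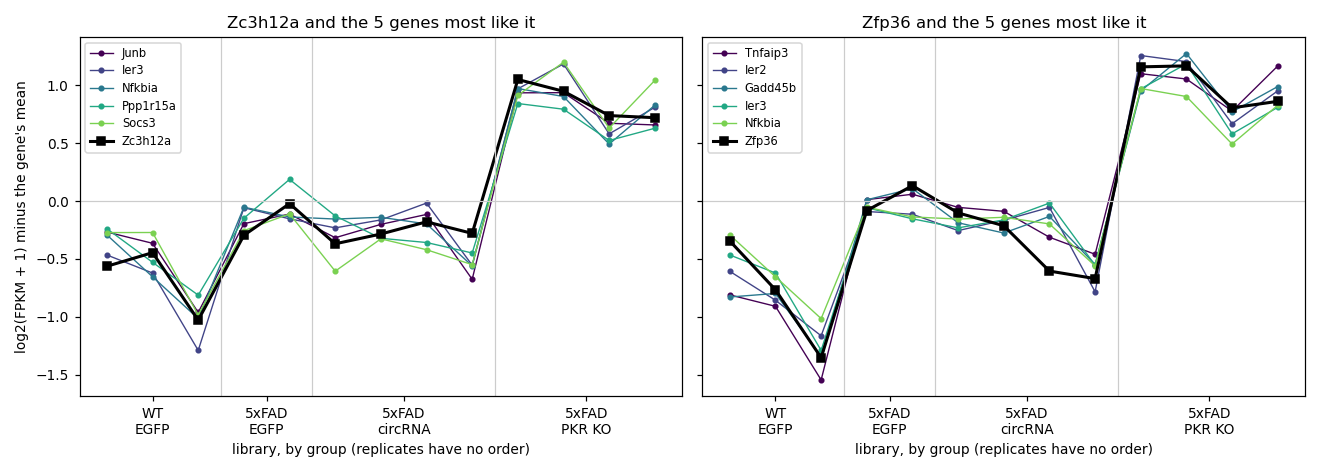
Log2(FPKM + 1) of each library minus the gene's mean over the 13 libraries, for Zc3h12a (left) and Zfp36 (right) in black and the 5 genes most like each in colour. Libraries are placed by group and lines only join the points of a gene. All of these genes are highest in the 4 knockout libraries and lowest in wild type replicate 3, where Junb was at 106 FPKM against 327 to 397 FPKM in the knockout.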

How the data were processed

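The authors deposited 1 table of FPKM values, with a column for each of the 13 libraries. Per the labels' protocols, RNA was extracted with TRIzol, depleted of ribosomal RNA and made into stranded libraries. The submitters' processing notes name Bowtie2 2.3.5, HISAT2 2.1.0, featureCounts 1.5.1 and the build mm10, without roles or settings. Gene lengths from GENCODE M21 (19394 genes, 98.3%) turned the steps between low values into fragments. Of 26895 values below 0.3 FPKM, 91.8% were whole within 0.02 fragments. FPKM is relative to each library's total, and its column sums ran from 123352 to 170775.

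Limma 3.58.1 in R 4.3.3 was run on log2(FPKM + 1) on the 10817 genes that averaged 1 FPKM or more, with a mean per group, 9 residual degrees of freedom and an intensity trend. P-values were adjusted by Benjamini-Hochberg within each of 5 tested comparisons, and a sixth, the knockout against EGFP in 5xFAD, was described only. The script was tested on simulated data. Members and lists were chosen with earlier results of these data known. All members were named, and from each list at most the 4 genes with the largest change in each direction among those that passed. For the members the 9 other settings and 13 fits without a library are summarised in the closing section. Groups follow the titles. The series design counts n in mice, and the labels do not say whether animals were pooled. A marker gene of the lymphocyte list is not reported here and was left out of its sum.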

Additional observations from a re-analysis of the deposited data

Results flagged for a closer look

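Zc3h12d was at 0.310 FPKM in PKR knockout replicate 3, against 0.541 to 0.589 FPKM in the other 3 knockout libraries. Its gap to the nearest of them was 0.830 of the group's range, barely past Dixon's 95% critical value for 4 samples. Of 18 groups of 4 examined it was the only library that stood out in this way, and chance flags about 1 in 20 groups. The value rests on 87 fragments and still lay above the 3 wild type libraries.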

How the results depend on the processing

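For circRNA against EGFP in 5xFAD, 0 of the other members passed under all 9 settings and all 13 fits without a library. For the knockout against wild type 3 passed, all higher, 6 with libraries scaled to the same FPKM sum (Zfp36 and Zfp36l1 higher, Zfp36l2, Rc3h1, Rc3h2 and N4bp1 lower), and 2 to 3 without a library. There quantile normalization lost Zfp36l1 and added Zfp36l2 as lower, no filter added Zc3h12d as higher, and a fit of those groups alone lost Zc3h12c. For circRNA against the knockout 2 passed, 3 with array weights (Rc3h2 added), and 1 to 2 without a library. For 5xFAD with EGFP against wild type 1 passed, 2 with the same sum (Zfp36l2 and N4bp1, both lower, in place of Zfp36), 0 in a fit of those groups alone, 0 with voom on recovered fragments and 0 to 1 without a library. In that comparison Zfp36 was lost with no filter, where Zc3h12d passed as higher, and after quantile normalization, where Zfp36l2 passed as lower. For circRNA against wild type 0 passed, 1 with no filter (Zc3h12d), 4 with the same sum, all lower, 1 with median-ratio scaling, 1 with quantile normalization, 1 with array weights (Zfp36l2 in these 3) and 0 to 2 without a library. With the replicate number as a block, 1 passed there (Zfp36, limma adjusted p = 0.0371), and the block changed no other call of a member. Same-numbered libraries of these groups correlated at -0.42 to 0.69 and are not known to be paired. The change of Zc3h12a there was 0.40, 0.15, 0.34, 0.35, 0.40 and 0.22, and no longer past the threshold, with no filter, the same sum, median-ratio scaling, quantile normalization, a fit of these groups alone and array weights, and 0.23 to 0.52 without a library. Rc3h2 turned from 0.02 to -0.21 in that comparison with the same sum. Fitting fewer groups leaves fewer samples to set the spread, and the cause of the other changes was not tested. Over all genes, calls in 5xFAD with EGFP against wild type went from 1514 (827 higher) to 509 (386 higher) in a fit of those groups alone and 3709 (708 higher) with the same sum, which moved the median of all genes from -0.03 to -0.17. Without a library they were 566 to 1998, lowest without either EGFP 5xFAD library and highest without wild type replicate 3. For circRNA against wild type they went from 2796 (1925 higher) to 1725 (1269 higher) and 5676 (995 higher), and to 3279 (1779 higher) with median-ratio scaling and 3163 (1619 higher) with quantile normalization. For the knockout against wild type they went from 3997 (1898 higher) to 6595 (1174 higher) with the same sum, and for circRNA against the knockout from 670 (463 higher) to 3161 with array weights, 941 (260 higher) with median-ratio scaling, 511 (164 higher) with quantile normalization, 683 (339 higher) with the same sum, and 147 without knockout replicate 1 to 1339 without wild type replicate 3. For the knockout against EGFP in 5xFAD they went from 9 to between 0 and 822. With 2 libraries in 5xFAD with EGFP, a member's change there could be seen only where it was large beside a SE of 0.07 to 0.26.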
